A study of Homo sapiens with 3 samples.

Results

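Cells sorted with a single fluorescent signal after induced cell-in-cell formation were set beside parental cells of the same line, gene by gene and cell by cell, at an equal depth of 6500 unique molecular identifiers (UMIs) per cell. Barcodes counted as cells from 6500 UMIs and 500 genes upwards, provided that mitochondrial transcripts made up no more than 20% of their UMIs. In the 3 libraries 5640 barcodes met these limits, and 3700 of them belong to the groups compared, 2409 parental and 1291 single-positive. The other 1940 cells were double-positive and served only as side values. All cells were BxPC-3, a human pancreatic ductal adenocarcinoma line, and each group had 1 library made with a 10x Chromium 5′ kit.

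Equal numbers of EGFP-expressing and mCherry-expressing cancer cells were mixed and held in suspension, which lets living cells enter one another. Sorting then took cells with both colours as double-positive and those with EGFP or mCherry alone as single-positive. The parental library is the group labelled as parental cells, for which the labels give no suspension step and no sort. Whether green and red cells were combined in the single-positive library, and at which step cells were grown up before trypsin treatment, is not stated in the labels. No feature for either fluorescent protein was used here, and BxPC-3 is 1 line. Suspension, sorting, reporter expression and the library itself cannot be told apart in this comparison. With 1 library a group there is no replicate check, no test was made, and all 95% intervals cover counting error only.

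In entosis, a form of cell-in-cell formation, a cell that loses contact with the matrix pushes into a neighbour through cadherin junctions and actomyosin contraction driven by RhoA and its kinases. Interferon-stimulated genes answer type I and type III interferons with antiviral proteins and are active at rest in many carcinoma lines. Replication-dependent histone genes are transcribed mainly in S phase, and most of their transcripts end in a stem-loop in place of a poly(A) tail.

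The parental library held 65107147 UMIs and the single-positive library 51637677, of which 98.0% and 97.7% lay in cells. The median was 23290 UMIs per parental cell and 38137 per single-positive cell, with 4787 and 5924 genes. At 6500 UMIs the medians were 2378 and 2431 genes. The libraries shared 1 cell barcode. Near-empty barcodes contributed little, since the mean content of the 10000 largest uncalled barcodes came to 0.341% of a parental and 0.196% of a single-positive cell's UMIs. Epithelial markers such as KRT7 and KRT8 summed to 10141 and 10099 CPM (UMIs of a gene scaled to 1000000 UMIs per library), and fibroblast and endothelial markers to at most 3.46 CPM. Immune markers summed to 46.2 and 34.6 CPM, most of it CD68, a lysosomal protein, at 39.9 and 29.6 CPM, while PTPRC, MS4A1, CD3E and NKG7 were at 0 in both libraries. G2M calls covered 39.1% of parental and 47.2% of single-positive cells, S calls 16.4% and 19.6%, and G1 calls 44.5% and 33.2%.

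One set of single-positive droplets stood apart from all others. Depth per single-positive cell had a separate low peak, as the histogram of UMIs per cell shows, and 251 single-positive droplets (19.4%) held under 15000 UMIs, against 390 parental cells (16.2%). Of these single-positive droplets 74.1% were called G2M, against 30% of parental cells in the same range. Their median mitochondrial share was 3.34% against 1.86% in parental and 3.09% in double-positive cells of that range. They held a median of 2676 genes after thinning, where the other ranges of both libraries lay between 2361 and 2421. Genes that mark different cells elsewhere occurred together in them. UBE2C, a ubiquitin-conjugating enzyme of mitosis, LY6D, a surface protein of stratified epithelium, and DHRS2, a short-chain dehydrogenase, were all present in 95 of the 251 droplets (37.8%, exact Clopper-Pearson interval 31.8 to 44.2%). The same 3 genes met in 0.513% of parental cells of that range and in at most 4.71% of cells in any other range of the 3 libraries.

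**Figure D1:**
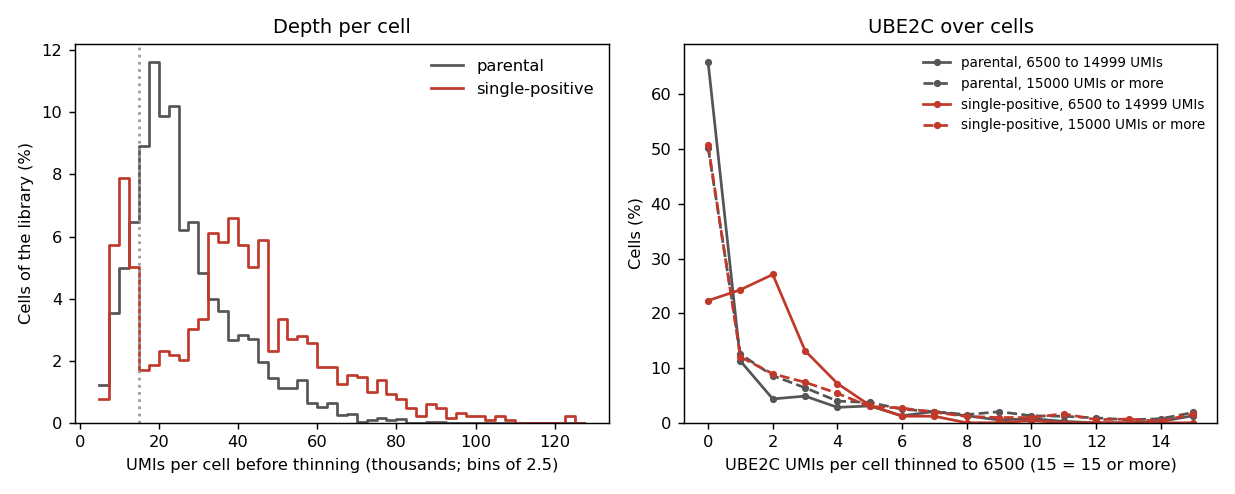
Left, the percentage of each library's cells in bins of UMIs per cell before thinning, with a dotted line at 15000 UMIs. Right, the percentage of cells holding a given number of UBE2C UMIs after thinning to 6500. The single-positive droplets under 15000 UMIs form a separate peak and hold 1 to 3 UBE2C UMIs far more often than the other 3 sets, in which most cells hold none.

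UMIs were also spread more evenly over these droplets. Were UBE2C UMIs scattered at random over cells, 83.8% of the 251 droplets would hold one, and 77.7% did. In parental cells of the range the even share was 74.0% and the observed share 34.1%. The variance of UBE2C UMIs over cells was 1.41 times the mean in the single-positive droplets and 6.31 times the mean in the parental cells. Over all genes with an even share of 20 to 80%, the observed share fell short of 90% of the even share for 2.01% of genes in the single-positive droplets and for 12.7% in the parental cells. No droplet was removed as a doublet. Results are given for all cells and in many places also for the 2019 parental and 1040 single-positive cells with at least 15000 UMIs.

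A gene's share is the percentage of cells with at least 1 of its UMIs after thinning, and its level in expressing cells is the mean number of UMIs in those cells. The product of the 2 is its mean level, given as CPM. How a difference splits between them depends on abundance. A gene with few UMIs per cell can differ mainly by share, and a gene found in nearly all cells only by level. Of 8639 genes with a share of at least 5% in either library, 383 (4.43%) had a share at least 5 percentage points higher in single-positive cells and 110 (1.27%) at least 5 points lower. Among 7788 genes whose mean reached 10 CPM, 59 (0.758%) had a mean level at least 1.5-fold higher and 17 (0.218%) at least 1.5-fold lower. For a 2-fold difference the counts were 9 (0.116%) and 4 (0.0514%). The median log2 ratio of single-positive to parental mean level was 0.057 over all 7788 genes, and 61.4% of them were higher. In cells with at least 15000 UMIs the share counts were 231 (2.72%) and 149 (1.76%) and the level counts 37 (0.481%) and 24 (0.312%). Of the 383 genes, 382 kept their direction there and 197 were still at least 5 points higher, and of the 110 all kept their direction and 75 were still called. Over all 8639 genes 64.2% had a higher share and 35.8% a lower one. Without thinning, 7614 of 11758 genes had a share at least 5 points higher in the deeper, single-positive library and 0 a share at least 5 points lower.

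**Figure D2:**
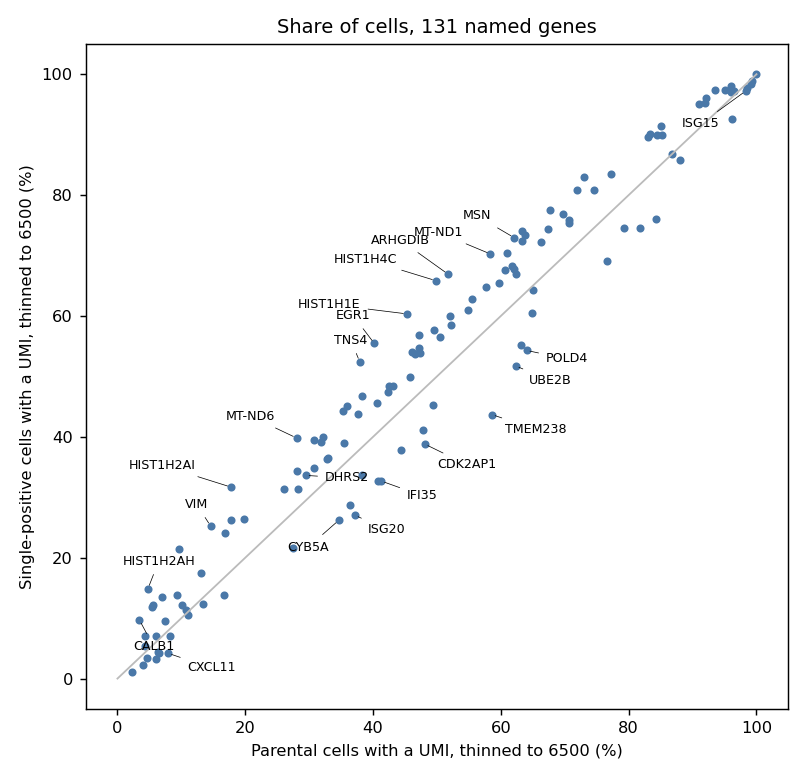
Share of cells with at least 1 UMI at 6500 UMIs per cell, parental on the x axis and single-positive on the y axis, 1 point per named gene (131 genes), with the line of equal shares. HIST1H4C, EGR1, ARHGDIB, HIST1H1E and TNS4 lie furthest above the line, and TMEM238, UBE2B and ISG20 furthest below it.

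Histone genes led the rise in share. HIST1H4C, which encodes histone H4 (chr6:26103876-26104310, GRCh38, plus strand), was found in 49.8% of parental cells (47.8 to 51.8%) and 65.8% of single-positive cells (63.2 to 68.4%). Its level in expressing cells was 2.001 UMIs against 2.67 UMIs. On the log2 scale the share differed by 0.40 and the level by 0.42, which add up to 0.82 (0.74 to 0.90) for the mean level. Before thinning its shares were 76.6% and 90.7%, and 0.654% and 1.84% of near-empty barcodes (50 to 100 UMIs) held one of its UMIs. HIST1H1E, encoding a linker histone, had shares of 45.3% and 60.3% and levels of 2.31 and 3.09 UMIs (log2 ratio of mean level 0.83). Among the H2A genes the difference lay in the number of cells. HIST1H2AI was in 17.8% and 31.7% of cells, HIST1H2AJ in 9.63% and 21.4%, and HIST1H2AH in 4.77% and 14.9%, while their levels in expressing cells, between 1.18 and 1.81 UMIs, differed by at most 0.19 on the log2 scale. With at least 15000 UMIs the differences in share of these 3 genes were smaller, at 16.3% and 23.4%, 9.76% and 18.2%, and 4.16% and 11.1%. HIST1H4C was at 51.3% and 66.25% there and HIST1H1E at 43.4% and 53.8%.

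Of 57 replication-dependent histone genes listed, 24 reached the 5% share. Of these, 20 were higher in single-positive cells and 4 lower, beside 64.2% higher of all genes. In 10 the share was at least 5 points higher and in 0 at least 5 points lower, beside 4.43% and 1.27% of all genes. The median log2 ratio of the 20 with at least 10 CPM was 0.76, beside 0.057 over all genes. The lowest members were HIST1H2BJ (log2 ratio -0.40), HIST1H2BC (-0.23) and HIST3H2A (-0.17). Summed over the list, the median single-positive cell held 8 UMIs and the median parental cell 6. The median over list members was 0.52 in cells with at least 15000 UMIs, 0.65 among cells called G1 and 0.60 with phases weighted alike. It changed with depth range, at 0.96 under 15000 UMIs, 0.41 from there to 25000, -0.02 from 25000 to 40000 and 0.90 above. In the third range 53.1% of parental but 21.9% of single-positive cells were called G2M, and the part of the phases in that value was not tested. Near-identical histone copies share reads, so values of single H2A genes are uncertain.

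The promoters of HIST1H2AI and HIST1H2AJ show how alike these neighbouring genes are, which is why both are printed here. The sequences are the 250 bases before the RefSeq start on GRCh38.p14, in the gene's direction. Capitals mark CCAAT and TATAAA on either strand (ATTGG and TTTATA on the other). HIST1H2AI lies at chr6:27807923-27808172 (plus strand) and HIST1H2AJ at chr6:27814778-27815027 (minus strand).
HIST1H2AI: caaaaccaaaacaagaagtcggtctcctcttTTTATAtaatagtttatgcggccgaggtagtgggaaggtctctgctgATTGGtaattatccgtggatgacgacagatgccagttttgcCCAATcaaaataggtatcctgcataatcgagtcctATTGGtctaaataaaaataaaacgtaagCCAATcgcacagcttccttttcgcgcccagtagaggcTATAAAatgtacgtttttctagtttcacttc
HIST1H2AJ: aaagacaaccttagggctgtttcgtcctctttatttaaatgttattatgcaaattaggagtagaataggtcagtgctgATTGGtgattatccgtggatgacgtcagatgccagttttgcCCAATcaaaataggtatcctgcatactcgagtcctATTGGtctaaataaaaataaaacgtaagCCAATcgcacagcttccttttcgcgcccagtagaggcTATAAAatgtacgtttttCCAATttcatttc
They were identical at 205 of 250 aligned positions and at 172 of the last 180. Over the 300 bases from 250 before to 50 after the start, CCAAT occurred in 43 of 50 matched histone promoters (86%) and in 35.7% of all 27305 promoters. TATAAA occurred in 34 of the 50 (68%) and in 3264 of all promoters.

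VIM, the gene of vimentin, an intermediate filament of mesenchymal cells (chr10:17228259-17237593, plus strand), was present in 14.6% of parental cells (13.2 to 16.04%) and 25.3% of single-positive cells (22.9 to 27.7%). Expressing cells held 1.83 and 2.14 UMIs, and the log2 ratio of mean level was 1.02 (0.86 to 1.18), 0.79 of it from the share. At most 14 VIM UMIs were found in a thinned single-positive cell and 11 in a parental one. Before thinning the shares were 28.97% and 44.0%, and in double-positive cells the thinned share was 11.7%. VIM was higher in single-positive cells in all 4 depth ranges, with shares of 17.4% and 36.3%, 15.1% and 26.9%, 13.2% and 19.9%, and 12.7% and 23.4% from the shallowest to the deepest. It was also higher in G1, S and G2M cells, at log2 ratios of 1.15, 0.65 and 0.96.

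**Figure D3:**
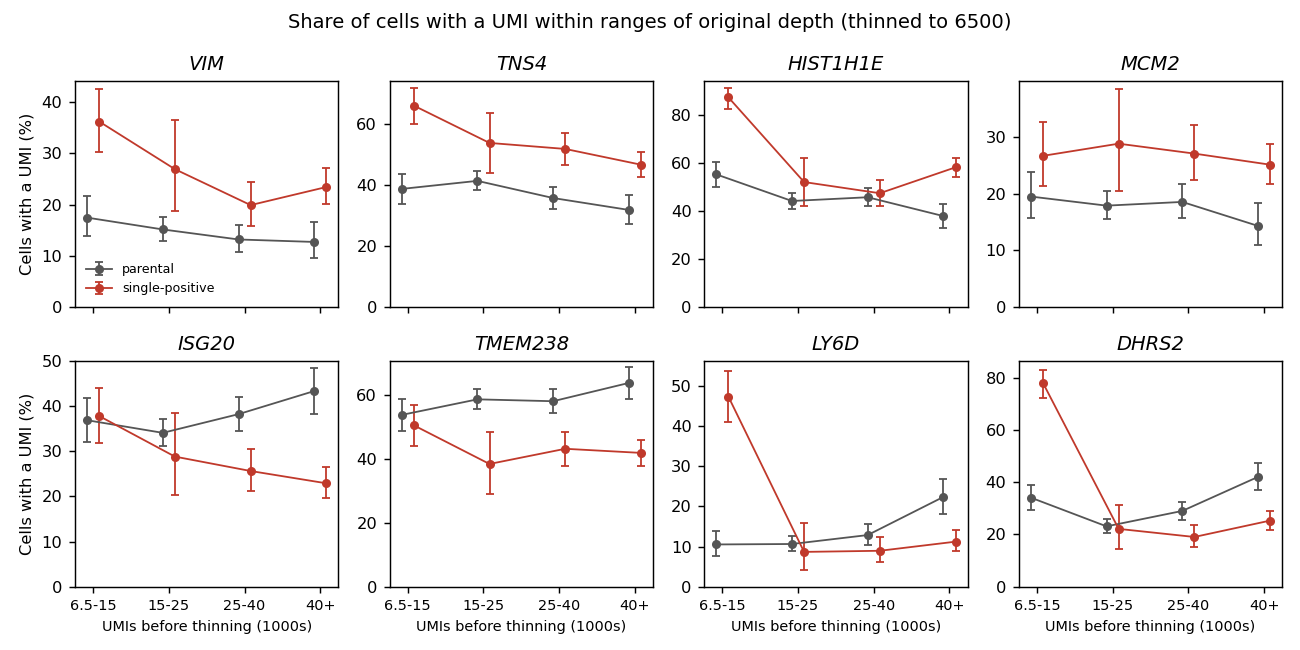
Share of cells with a UMI at 6500 UMIs per cell for 8 genes, within 4 ranges of UMIs per cell before thinning (parental grey, single-positive red; bars are exact 95% Clopper-Pearson intervals and cover counting error only). VIM, TNS4 and MCM2 are higher in single-positive cells in every range, whereas LY6D and DHRS2 are higher in the shallowest range and lower in the deeper ones.

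Several genes of cytoskeleton and motility stood with VIM. ARHGDIB (chr12:14942017-14961728, minus strand), was in 51.7% of parental and 66.9% of single-positive cells (log2 ratio of mean level 0.58, interval 0.49 to 0.67). MSN encodes moesin, which links actin to the membrane (chrX:65588377-65741931, plus strand), and its shares were 62.1% and 73.0%, with 2.02 and 2.46 UMIs in expressing cells (0.51). TNS4, a focal adhesion protein of the tensin family (chr17:40475828-40501597, minus strand), had shares of 37.9% and 52.4% (0.64). All 3 were higher in each of the 4 depth ranges. In cells with at least 15000 UMIs the shares were 51.4% and 67.1% for ARHGDIB, 61.1% and 68.9% for MSN, and 37.7% and 49.1% for TNS4.

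Of 18 mesenchymal and motility genes that reached the 5% share, 17 were higher and 1 lower, beside 64.2% higher of all genes. In 7 the share was at least 5 points higher, beside 4.43% of all genes, and the median log2 ratio was 0.20. The hyaluronan receptor CD44 was in 76.3% and 83.4% of cells (log2 ratio 0.37), the transcription factor SNAI2 in 48.9% and 54.2% (0.23), and the crosslinking enzyme TGM2 in 57.7% and 64.8% (0.53). With at least 15000 UMIs TGM2 was at 56.5% and 58.75% (0.36). The receptor tyrosine kinase AXL was in 14.2% and 17.0% (0.36). S100A4, a calcium-binding protein of motile cells, was nearly level in share at 10.7% and 11.3% and had a log2 ratio of -0.17 (-0.43 to 0.09), and MMP1, a collagenase, had -0.03. Sums over the list showed how far the cells overlapped, with a median of 32 UMIs in single-positive and 29 in parental cells and central 90% ranges of 12 to 54 and 10 to 51. With at least 15000 UMIs the list's median was 0.19, but 5 of the 18 members had a lower share. In 2 of the 18 the share was at least 5 points higher there, beside 2.72% of all genes.

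Genes for matrix contact followed. Among 23 integrin, laminin and hemidesmosome genes with at least 10 CPM, 22 were higher and 1 lower, with a median of 0.18, beside 61.4% higher of all genes. LAMB1, a laminin chain, was in 15.2% and 20.3% of cells, and the integrin chain ITGB1 in 84.5% and 89.9%. Of 24 YAP and TAZ targets, genes that respond to tension and spreading, 18 were higher and 6 lower against that same background (median 0.26), with AMOTL1 at 0.55 and PHLDB2 at 0.48, whereas CYR61 stayed at 1097 CPM in both libraries and CTGF had -0.05. In cells with at least 15000 UMIs the median was 0.06 for integrins and laminins and 0.21 for YAP and TAZ targets, beside 0.04 over all genes. Within the 4 depth ranges, from the shallowest to the deepest, integrins and laminins had medians of 0.35, 0.29, 0.12 and 0.24. Those of YAP and TAZ targets were 0.38, 0.30, 0.16 and 0.27, and those of all genes 0.11, 0.03, -0.01 and 0.08.

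Genes of the entosis machinery differed by little. Of 33 members with a share of at least 5%, 28 were higher and 5 lower in single-positive cells, beside 64.2% higher of all genes. In 7 the share was higher by at least 5 points, beside 4.43% of all genes. The median log2 ratio of mean level was 0.14, and 0.06 with at least 15000 UMIs. Within the depth ranges it was 0.39, 0.18, 0.05 and 0.16 from the shallowest to the deepest. MSN led with ARHGEF2, a RhoA exchange factor, at shares of 10.5% and 16.03% (0.67), and MYH9, the heavy chain of nonmuscle myosin, at 71.9% and 80.9% (0.43). Ezrin (EZR) was in 92.0% and 96.1% of cells, with 3.83 and 4.42 UMIs in expressing cells (0.27). E-cadherin (CDH1) was in 35.5% and 39.0% at a log2 ratio of 0.08 (-0.06 to 0.22), ROCK2 in 7.47% and 9.45% (0.27, interval -0.06 to 0.60), and RHOA itself was at 446 and 425 CPM (-0.07). The log2 ratio of ROCK2 was 0.69 among G1 cells, and that of CDH1 ranged from -0.02 with at least 15000 UMIs to 0.28 at 3000 UMIs per cell.

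Replication genes differed by share. MCM2, a subunit of the replicative helicase, was in 17.8% of parental cells (16.3 to 19.4%) and 26.3% of single-positive cells (23.9 to 28.8%), with 1.21 and 1.26 UMIs in expressing cells. Its log2 ratio of mean level was 0.62 (0.43 to 0.81), 0.56 of it from the share, and it was higher in all 4 depth ranges. The helicase subunits MCM4 (27.9% and 34.6%) and MCM5 (20.4% and 27.1%) and CDC6 (18.5% and 23.7%), which loads the helicase, showed the same order, while PCNA, the sliding clamp, was nearly level at 57.0% and 59.1%. Of 52 S phase genes, 49 had a higher share and 3 a lower one, beside 64.2% higher of all genes. In 6 it was at least 5 points higher, beside 4.43% of all genes. The median log2 ratio was 0.22 in all cells, 0.25 with at least 15000 UMIs, 0.17 among cells called G1 and 0.05 with phases weighted alike. Phases were scored from this list and the list of G2 and mitosis genes. Values by phase therefore hold the listed genes partly fixed, and the smaller medians cannot show where the difference lies. By depth range the median of the S phase list stayed near 0 in all but the deepest. It was -0.03 under 15000 UMIs (23 higher, 27 lower), 0.03 up to 25000 (27 and 23), 0.05 up to 40000 (28 and 22) and 0.65 above (47 and 3). Over all genes the medians were 0.11, 0.03, -0.01 and 0.08, so the list lay below all genes in the shallowest range. In these ranges 4724, 4144, 3772 and 4625 of 7788 genes (7786 in the second) were higher. The deepest range held 45.6% of single-positive and 15.4% of parental cells.

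Genes of G2 and mitosis had a median of 0.14, and 49 of 55 had a higher share, beside 64.2% of all genes. MKI67 was in 35.4% and 44.2% of cells (0.42), and the condensin subunit NCAPD2 in 16.9% and 24.2% (0.56). This list did not keep its sign. Its median was 0.08 with at least 15000 UMIs, -0.02 with depth ranges weighted alike and -0.03 with phases weighted alike. Between 25000 and 40000 UMIs all 55 members were lower (median -0.89). In that range 53.1% of parental but 21.9% of single-positive cells were called G2M. The median was 0.43 under 15000 UMIs (46 higher, 9 lower), 0.11 from there to 25000 (31 and 24) and 0.30 above 40000 (46 and 9). Medians over all genes in these ranges are given above. The value with phases weighted alike is not independent of the list, since the phases were scored partly from it.

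All 13 mitochondrially encoded protein genes were higher in single-positive cells, 12 of them by at least 0.32 on the log2 scale, beside 9.35% of all genes. By list medians the level in expressing cells carried more of the difference, at 0.42 on the log2 scale against 0.13 for the share. MT-ND5, a subunit of respiratory complex I, was in 60.9% and 70.4% of cells and at 3.13 and 4.91 UMIs in expressing cells (log2 ratio of mean level 0.86, interval 0.80 to 0.92). MT-CO3 had 83.4% and 90.1% with 7.78 and 11.3 UMIs. MT-ND6, at 28.02% and 39.8% with 1.78 and 2.47 UMIs, differed about as much in share as in level. Near-empty barcodes held MT-ND5 in 6.54% of parental and 9.41% of single-positive cases. The median of the 13 was 0.52 in all cells and 0.31 with at least 15000 UMIs, where 6 of 13 were higher by at least 0.32. Within the depth ranges it was 0.81, 0.83, 0.58 and 1.29 from the shallowest to the deepest, and 0.82 with ranges weighted alike. Among cells called G1, S and G2M it was 0.45, 0.05 (11 higher, 2 lower) and 0.77. Cells with under 0.5% mitochondrial UMIs made up 31.8% of the parental and 21.8% of the single-positive library. Within those cells the median was 0.05, against 0.37 in the other cells. That split was made on UMIs of these same genes and limits their level in both libraries, so the 2 medians cannot show where the difference lies. Nuclear-encoded respiratory chain genes had a median of -0.04 (31 of 68 with a higher share, beside 64.2% of all genes).

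A further group differed in level with little change in share. Of 1307 genes found in at least 50% of cells of both libraries, 18 (1.38%) had a level in expressing cells higher by at least 0.32 on the log2 scale and 6 (0.459%) lower by that much. AHNAK, a very large scaffold protein, was in 85.2% and 89.9% of cells at 2.88 and 4.03 UMIs, and 14% of parental but 29.9% of single-positive cells held at least 5. Filamin A (FLNA) had 91.0% and 95.04% at 3.45 and 4.37 UMIs, and the metallothionein MT1E 93.5% and 97.4% at 7.86 and 9.84 UMIs. The nuclear RNA MALAT1 was in 96.0% and 97.1% of cells at 14.6 and 20.0 UMIs, a log2 ratio of mean level of 0.47. For MALAT1 the ratio was 1.12 under 15000 UMIs and 0.13 in cells with at least 15000 UMIs, and for NEAT1 the overall 0.31 became -0.02 there.

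**Figure D4:**
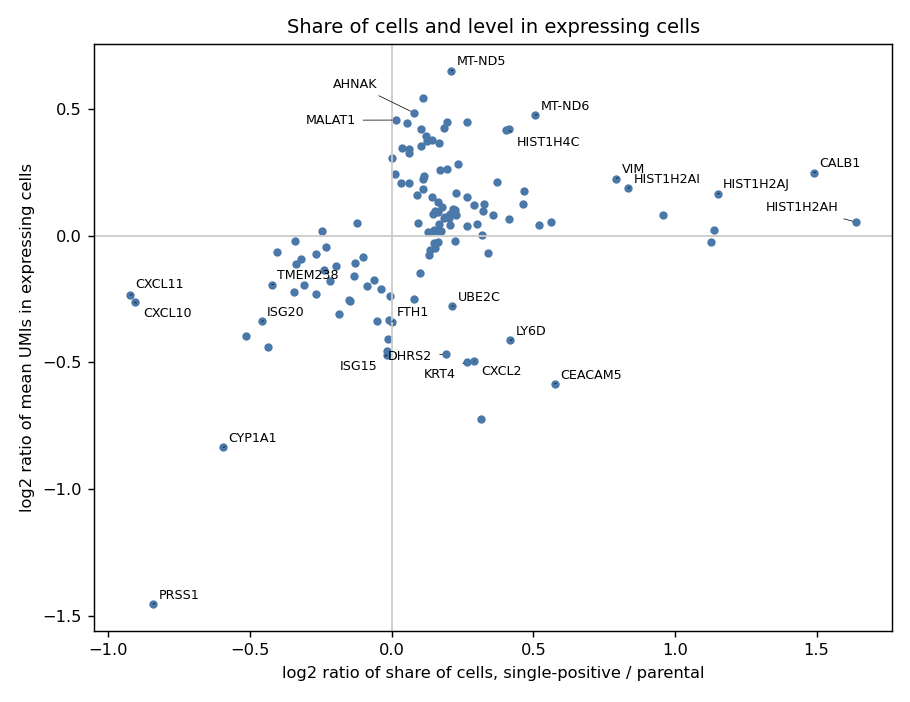
Log2 ratio of share (x axis) against log2 ratio of mean UMIs in expressing cells (y axis), single-positive over parental, for the named genes at 6500 UMIs per cell; the 2 values add up to the log2 ratio of mean level. H2A genes, VIM and CALB1 lie to the right, AHNAK, MALAT1 and MT-ND5 at the top, ISG15 and FTH1 at the bottom near a share ratio of 0, and LY6D, DHRS2 and CEACAM5 at the lower right.

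Interferon-stimulated genes were mostly lower in single-positive cells. Over the list, the median log2 ratio was -0.06 for the share and -0.05 for the level in expressing cells, and a gene found in nearly all cells can differ only by level. ISG20, an exonuclease (chr15:88636153-88656483, plus strand), was in 37.2% of parental cells (35.2 to 39.1%) and 27.0% of single-positive cells (24.6 to 29.6%). Expressing cells held 2.46 and 1.94 UMIs, and the log2 ratio of mean level was -0.80 (-0.92 to -0.67). Before thinning the shares were nearly level, 63.5% and 59.2%. IFI35 was in 41.3% and 32.7% of cells (-0.45) and IFI44L in 40.8% and 32.7% (-0.41). ISG15, a ubiquitin-like modifier (chr1:1001138-1014540, plus strand), was in 98.3% and 97.2% of cells, but expressing cells held 10.2 UMIs in the parental and 7.37 in the single-positive library (-0.49, interval -0.52 to -0.45). At least 10 ISG15 UMIs were found in 36.9% of parental and 21.3% of single-positive cells. IFITM1, a membrane protein that blocks viral entry, went from 9.25 to 6.96 UMIs and IFI6 from 17.6 to 14.9.

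Of 53 interferon-stimulated genes with at least 10 CPM, 39 were lower and 14 higher, beside 38.6% lower of all genes, and 12 were lower by at least 0.32 on the log2 scale (2.23% of all genes were) and 0 higher by that much. The median log2 ratio was -0.16. With at least 15000 UMIs it was -0.17, and 43 were lower there, beside 42.6% lower of all genes. Of the 43, 11 were lower by at least 0.32, a size at which all genes were not counted in those cells. The median was -0.22, -0.29 and -0.21 in the 3 lower depth ranges, but -0.06 with at least 40000 UMIs (25 higher, 28 lower), and it was -0.07 among G2M cells (22 and 31). Of all 7788 genes 3163 were lower with at least 40000 UMIs (median 0.08) and 3170 among G2M cells (median 0.06). The highest members were ADAR (0.25) and STAT2 (0.20). Summed over the list, the median cell held 115 UMIs in the parental, 99 in the single-positive and 115 in the double-positive library. The whole range was shifted, with the 5th percentile at 62, 50 and 65 UMIs and the 25th at 92, 79 and 93.

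The promoters of ISG15, ISG20 and CXCL10 are printed because each holds the core of an interferon-response element, here the letters GAAA followed by any 2 bases and GAAA again (capitals, either strand searched). They are the 250 bases before the RefSeq start on GRCh38.p14: ISG15 at chr1:1013247-1013496 (plus), ISG20 at chr15:88638766-88639015 (plus) and CXCL10 at chr4:76023498-76023747 (minus).
ISG15: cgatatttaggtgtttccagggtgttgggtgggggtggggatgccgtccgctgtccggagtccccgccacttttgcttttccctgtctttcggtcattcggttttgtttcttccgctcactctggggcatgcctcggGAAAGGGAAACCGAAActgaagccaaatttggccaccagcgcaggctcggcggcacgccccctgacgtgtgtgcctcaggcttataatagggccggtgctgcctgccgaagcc
ISG20: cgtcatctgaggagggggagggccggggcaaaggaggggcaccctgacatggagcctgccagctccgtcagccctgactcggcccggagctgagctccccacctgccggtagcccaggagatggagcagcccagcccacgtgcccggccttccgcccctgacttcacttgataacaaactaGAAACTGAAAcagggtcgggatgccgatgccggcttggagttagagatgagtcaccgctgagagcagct
CXCL10: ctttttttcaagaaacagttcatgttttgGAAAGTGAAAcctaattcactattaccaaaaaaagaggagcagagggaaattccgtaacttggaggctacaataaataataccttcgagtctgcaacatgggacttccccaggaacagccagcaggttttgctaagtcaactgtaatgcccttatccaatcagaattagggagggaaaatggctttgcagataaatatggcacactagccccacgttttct
In ISG15 a pair of matches overlaps. Among genes searched but not printed, IFI44L held 2 matches, IFITM1 1 and IFI6 3, while IFI35 and CXCL11 held 0. The letters occurred in 28 of 46 matched interferon-stimulated promoters (60.9%) and in 996 of all 27305 promoters (3.65%), over 300 bases. They occurred in 6 of the 10 matched genes that were lower by at least 0.32 on the log2 scale and in 22 of the 34 others counted.

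Chemokines of the same response differed in a small set of cells. CXCL10 was in 6.10% of parental cells (5.18 to 7.13%) and 3.25% of single-positive cells (2.35 to 4.37%), at 5.14 and 4.29 UMIs in expressing cells. CXCL11 was in 7.93% and 4.18%, and both attract T cells through CXCR3. The log2 ratios of mean level were -1.17 and -1.16 in all cells, and -0.94 and -0.77 with at least 15000 UMIs. The 5% of cells with most CXCL10 UMIs held 96.6% of them in the parental library, and 1 parental cell held 75. Cells with at least 10 UMIs of interferon beta, interferon lambda and CXCR3 chemokine genes together numbered 46 parental (1.91%, 1.40 to 2.54%), 8 single-positive (0.620%, 0.268 to 1.22%) and 31 double-positive (1.60%). With at least 15000 UMIs there were 35 parental (1.73%, 1.21 to 2.40%) and 8 single-positive cells (0.769%, 0.333 to 1.51%), whose intervals overlap. At all depths, cells with at least 10 such UMIs held a median sum of interferon-stimulated UMIs of 262.5 in parental and 273 in single-positive cells. In cells without any it was 112 and 97. CXCL10 values ranged widely, from -2.22 without cells under 0.5% mitochondrial UMIs to -0.64 without thinning.

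Other genes had a lower share, and part of their lower mean level lay in the level in expressing cells. TMEM238, a small membrane protein (chr19:55379245-55384598, minus strand), was in 58.6% of parental (56.6 to 60.5%) and 43.7% of single-positive cells (41.0 to 46.4%), with a log2 ratio of mean level of -0.62. Its share in double-positive cells was 44.0%, and it was lower in single-positive cells in all 4 depth ranges. UBE2B, a ubiquitin-conjugating enzyme of DNA repair, was in 62.3% and 51.7% of cells (-0.34), POLD4, a small subunit of DNA polymerase delta, in 64.0% and 54.3% (-0.37), and CDK2AP1, an inhibitor of CDK2, in 48.1% and 38.8% (-0.50). The histone variant gene H2AFJ was in 84.3% and 76.1% (-0.41), against the direction of most replication-dependent histones. For H2AFJ the larger part of the difference lay in the level in expressing cells. CYB5A was in 34.6% and 26.2% and the ESCRT subunit CHMP5 in 63.2% and 55.2%. In cells with at least 15000 UMIs each of these 7 genes was again lower, TMEM238 at 59.5% and 42.0%.

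Targets of p53 were mostly lower by small amounts, 16 of 22 with at least 10 CPM, beside 38.6% of all genes. Their median was -0.16, and -0.22 in cells with at least 15000 UMIs. CDKN1A, the cell cycle inhibitor p21, was in 88.0% and 85.8% of cells at 4.07 and 3.51 UMIs (-0.25). With at least 15000 UMIs its shares were 89.0% and 83.6%. BBC3, which encodes the death inducer PUMA, was in 16.6% and 13.8% (-0.50), GDF15, a stress cytokine, in 47.5% and 45.3% at 3.27 and 2.45 UMIs (-0.48), and TIGAR in 36.4% and 28.7% (-0.36). SESN2 had -0.24 with an interval of -0.52 to 0.04, and PLK3 was higher (0.30).

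Some genes owed their ratio to a few cells. PRSS1, which encodes trypsinogen, was in 97 parental and 29 single-positive cells (4.03% and 2.25%), and 1 parental cell held 117 of its UMIs. Its log2 ratio was -2.29 (-2.77 to -1.85) in all cells and -1.66 with at least 15000 UMIs, and its share in double-positive cells was 1.24%. Reads of PRSS1 and PRSS2 can be exchanged, and the other 10 of 12 acinar markers were at 0 in both libraries. CYP1A1, a target of the aryl hydrocarbon receptor, was in 6.43% and 4.26% of cells at 2.497 and 1.40 UMIs (-1.43). CALB1, a calcium-binding protein, went the other way, at 3.45% and 9.68% (log2 ratio 1.74, and 1.20 when other UMIs were drawn), and was at 3.57% and 8.08% in cells with at least 15000 UMIs.

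Summed CPM hid opposite shifts in a few genes. In 6 of 7783 genes the share was at least 2 points higher in single-positive cells while the level in expressing cells was lower by at least 0.32 on the log2 scale: CEACAM5, CXCL2, DHRS2, G0S2, KRT4 and LY6D. LY6D was in 13.03% of parental and 17.4% of single-positive cells at 3.31 and 2.48 UMIs, so its log2 ratio of mean level was 0.01 (-0.15 to 0.16). DHRS2 was in 29.4% and 33.6% at 6.06 and 4.38 UMIs, and CEACAM5 in 9.26% and 13.8% at 2.43 and 1.62 UMIs. Under 15000 UMIs, the range of the droplets that stood apart, LY6D was in 10.5% of parental and 47.4% of single-positive cells and DHRS2 in 34.1% and 78.1%. In cells with at least 15000 UMIs 0 genes met both limits, while the reverse, a lower share with a higher level, was met by 3 genes there and by 0 in all cells. Shares were lower in single-positive cells for 4 of the 6, with LY6D at 13.5% and 10.2% and DHRS2 at 28.5% and 22.9%. UBE2C likewise turned from 47.2% and 54.8% in all cells to 49.8% and 49.2%. EGR1, an immediate early transcription factor, was in 40.2% and 55.5% of all cells and in 80.1% of the single-positive droplets of the low range, and was at 39.6% and 49.5% with at least 15000 UMIs.

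**Figure D5:**
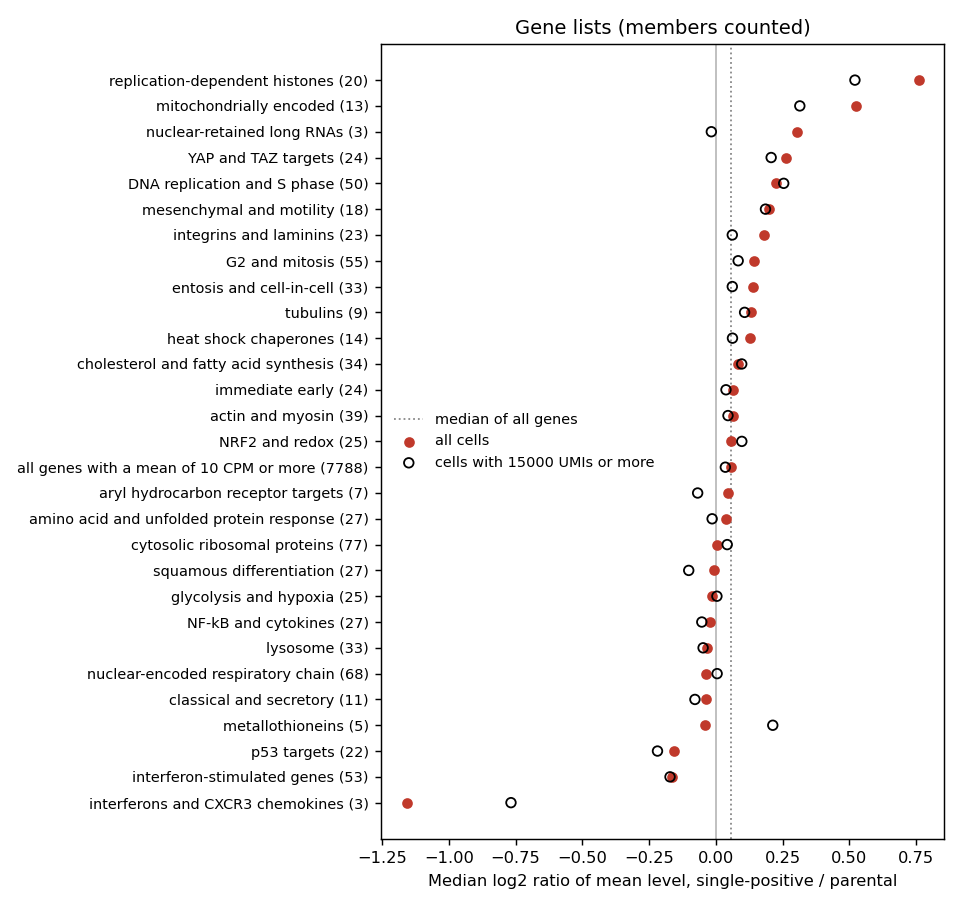
Median log2 ratio of mean level, single-positive over parental, for 28 gene lists and for all genes, in all cells (filled) and in cells with at least 15000 UMIs (open), with the number of members counted in brackets and a dotted line at the median of all genes. Histones and mitochondrially encoded genes lie furthest to the right and interferons with CXCR3 chemokines furthest to the left in both, while nuclear-retained RNAs move from 0.31 to -0.02.

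Double-positive cells, set beside these values, were processed in the same way. For VIM (11.7%), HIST1H2AI (17.9%), MSN (62.6%) and CALB1 (2.47%) their shares lay near or below the parental ones. For TMEM238 (44.0%) and CDK2AP1 (33.1%) they lay near or below the single-positive ones. TNS4 (43.9%), ARHGDIB (58.4%), ISG20 (33.4%) and IFI35 (34.8%) lay between. The level of MT-CO2 in CPM was 4529 in the parental, 5405 in the single-positive and 8221 in the double-positive library.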

How the data were processed

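Single-cell RNA of 3 BxPC-3 libraries was analysed from the deposited UMI counts per gene and barcode (737280 barcodes and 33694 features each). The submitters' processing notes name build GRCh38, Seurat 4.0.6 and Cell Ranger 4.0.0; no source used here gives the annotation release. Positions came from GENCODE 29 for 33132 features, promoters from RefSeq.

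Each cell was thinned without replacement to 6500 UMIs (seed 1). Shares have exact Clopper-Pearson intervals, ratios exact conditional binomial ones. Phases were scored on thinned cells with scanpy 1.11.5, from the lists of S phase genes and of G2 and mitosis genes. Other steps used Python 3.11.15, numpy 2.4.6, scipy 1.17.1 and pandas 2.3.3. Thinning and ratios were tested on simulated data in which all cells of a library shared the same profile. Genes spread unevenly over cells were therefore not covered by that test. Antisense genes, genes with clone names, XIST, Y-linked, ribosomal protein and MT- genes aside, named genes were the 10 largest rises and falls in share, the 6 highest and lowest log2 ratios of level in expressing cells (genes in at least 50% of cells) and of mean level (at least 10 CPM), up to 3 members of each list by difference in share, and a fixed set with the 13 mitochondrial genes. Of the genes so chosen 1 is not reported here. List members and markers named beyond that, such as CD44 and GDF15, were chosen after their values were seen. Members and lists were chosen with earlier results of these data known. Alternatives changed depth, thinning, cells, phase weights, ambient RNA, scaling and floors.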

Additional observations from a re-analysis of the deposited data

How the results depend on the processing

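In all cells 383 genes had a share at least 5 points higher and 110 lower, and 59 a level at least 1.5-fold higher and 17 lower. Thinning to 3000 UMIs gave 166 for share higher and 141 and 51 for level, and thinning to 15000 UMIs gave 200 for share lower and 21 for level higher. Without thinning the values were 7614 and 0 for share and 19 for level higher. With at least 15000 UMIs they were 231 for share higher and 37 for level higher, and without cells under 0.5% mitochondrial UMIs 26 for level lower. Depth ranges weighted alike gave 217 for share lower and 117 and 34 for level, G1 cells alone 231 for share lower and 184 and 56 for level, and phases weighted alike 11 for level lower. Median-of-ratios scaling, which shifts all ratios by -0.057, gave 39 for level higher. No floor gave 2178 and 1014 for level, and a floor of 10% and 30 CPM gave 17 and 4. All other settings stayed within 1.5 times.

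Among genes that differed by at least 5 points in share or 0.32 in log2 level, and lists with a median of at least 0.1, signs turned as follows. The median of G2 and mitosis genes was -0.018 with depth ranges and -0.032 with phases weighted alike. That of nuclear-retained RNAs was -0.00402 at 15000 UMIs per cell and -0.017 in cells with at least 15000. Differences in share at 15000 UMIs per cell were -0.39 points for AHR, -0.82 for CXCL2, -0.46 for ITGB1 and -2.43 for UBE2C, which also had -0.55 in cells with at least 15000 UMIs and -2.53 with ranges weighted alike. IL1A had -0.55 among G1 cells. Without thinning MSMO1 had 1.57, SDF2L1 1.36 and TIGAR 1.43. The log2 ratio of MT1G was 0.65 at 15000 UMIs, 0.26 without thinning and 0.47 in cells with at least 15000 UMIs. Below those sizes, signs turned under some alternative for the share of 23 genes, the level of 13 and the median of 10 lists. Drawing other UMIs moved 17 of 131 levels and 24 of 131 shares beyond their intervals. The causes were not tested. Of 1821 values for the levels of 131 named genes 1446 lay within the counting interval of the value for all cells, and of 1559 for differences in share 1144 moved by no more than the interval of the single-positive share. Ambient subtraction and median-of-ratios scaling give levels only. No paired analysis was possible because each group has replicate number 1 only, and no library could be left out.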

Other observations

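Redox, lipid and squamous genes showed differences within lists whose medians were near that of all genes. ALDH3A1, an aldehyde dehydrogenase, was in 63.4% of parental and 74.1% of single-positive cells, with 3.27 and 3.68 UMIs in expressing cells, and in 73.7% of double-positive cells. Glutathione reductase (GSR) was in 30.8% and 39.4% and sulfiredoxin (SRXN1) in 15.2% and 21.5%. Against these, the ferritin heavy chain FTH1, present in nearly every cell, was at 58.7 and 46.4 UMIs per expressing cell, FTL at 84.1 and 69.8, and the glutathione peroxidase GPX2 in 76.6% and 69.0% of cells. Of 26 redox genes 21 had a higher share and 5 a lower one, beside 64.2% higher of all genes. The list's median log2 ratio of mean level was 0.06, but -0.08 at 3000 UMIs per cell.

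In lipid synthesis, the stearoyl-CoA desaturase SCD was in 63.3% and 72.4% of cells (log2 ratio 0.46) and fatty acid synthase (FASN) in 31.2% and 37.0% (0.31), whereas the sterol enzymes TM7SF2 (16.6% and 10.2%, -0.73) and MSMO1 (47.9% and 41.2%, -0.40) were lower. Among squamous genes the basal keratin KRT5 had 5.55 and 6.82 UMIs in expressing cells (0.36) and TP63, the basal transcription factor, shares of 37.6% and 43.8% (0.32). SPRR3 (-0.64), KRT6B (-0.72) and SERPINB3 (-0.46) were lower, whereas KRT13 (915 and 964 CPM) and KRT6A (1287 and 1484 CPM) were higher. Of the squamous list 13 members were higher and 14 lower by level, and 19 higher and 9 lower by share, beside 64.2% higher by share of all genes. With at least 15000 UMIs the share count turned to 10 higher and 18 lower, and the level count was 10 and 17 (median -0.10). Of all genes 42.6% were lower by level there. In all cells WFDC2, a secreted protease inhibitor, was level in share at 65.1% and 64.4% but at 5.95 and 4.34 UMIs in expressing cells. AGR2, a disulfide isomerase of secretory cells, was at 38.2% and 33.6% with 2.22 and 1.80 UMIs. With at least 15000 UMIs both had a lower share in single-positive cells, WFDC2 at 65.9% and 59.4% and AGR2 at 38.6% and 31.4%. Ribosomal protein genes had a median of 0.005.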
